A study of Mus musculus with 11 samples.

Results

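The genes described here lie on mouse chromosome 7 within 20 Mb of Foxa3, the gene inactivated in the mice of the study. They were chosen by position, under a rule set with earlier results of these data known. The probe's coordinate in the scanner files (mm7) had to lie within 20 Mb of the Foxa3 probe. The probe also had to be well above background on 2 or more of the 11 arrays. Foxa3 itself and genes whose names start with Cyp2 or Sult were left out. This gave 496 of the 21875 genes tested, each represented by its brightest probe, with 178 at lower and 318 at higher coordinates than Foxa3. Their distances ran from -13.56 to 19.15 Mb, where a minus sign marks lower coordinates. For 411 of them a current gene symbol was found, and RefSeq places all 411 on chromosome 7 in the later build GRCm38.p6 as well.

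The study measured total RNA of mouse lung on one-colour Agilent arrays. Foxa3 knockout mice and their littermate controls, labelled WT and called wild type here, received saline or OVA as the challenge. OVA stands for ovalbumin, an egg protein used as an allergen. There were 3 wild-type saline, 2 knockout saline, 3 wild-type OVA and 3 knockout OVA arrays, placed on 3 slides. The labels give no strain, age, sex, number of backcrosses or extent of the deletion, nor whether an array stands for a single animal, so p-values measure the spread between these samples.

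Foxa3 is a forkhead transcription factor of airway and gut epithelium. The genes around it on chromosome 7 share a place and not a function: they include zinc-finger repressors, a cluster of apolipoprotein genes, carcinoembryonic adhesion molecules, DNA repair enzymes and inhibitors of NF-kappaB. In mice made by gene targeting, the DNA next to the targeted gene comes from the embryonic stem cells and is inherited together with it until recombination separates them. Whether the animals of these groups differ in sequence around Foxa3 was not tested. Absence of Foxa3 and any other difference that travels with the targeted allele coincide in this design and cannot be told apart.

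The probes of 6 of the 8 genes that kept their call under each of 21 other ways of processing or fitting the data are shown first, since each result below is the signal of 1 such 60-base probe and a reader may want to place it. For each probe the bases 16 to 45 are given, 5′ to 3′, in lower case, as the scanner files list them, and the Foxa3 probe is added for reference. No base is in capitals because no motif is marked.

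Foxa3: gtgacagaacacatcttctttggctcattt
Pglyrp1: gaacactaccgagagtgagagaccttgaga
Bcam: gacctcccagaggcaatctctggatctgga
Igsf23: cctgatcggatctgtctgcttctatatact
Tescl: agctacagggtacatgggacttgatggatt
Mrps12: ttcacagtggtctggcactcgatccttgga
Dmkn: ccagcaggtgaatcctacttacaactggca

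In mm7 the whole Foxa3 probe lies on the minus strand at chr7:16696078-16696137. The Pglyrp1 probe (plus strand) is at chr7:16572889-16572948 and the Bcam probe (minus strand) at chr7:17438936-17439083. The Igsf23 probe (minus strand) is at chr7:17620623-17621604 and the Tescl probe (minus strand) at chr7:21120768-21120827. The Mrps12 probe (minus strand) is at chr7:25674092-25674151 and the Dmkn probe (plus strand) at chr7:27716716-27716775. The intervals of Bcam and Igsf23 cover 148 and 982 bases, more than the 60 bases of the probe, so these probes align in pieces. Which exon or untranslated region each probe lies in was not determined here. None of the 29 probes whose genes changed shared a run of 20 bases with a probe of another gene on the array.

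Levels below are log2 intensities minus the 75th percentile of the array, and differences are knockout minus wild type on that log2 scale with their standard error. A gene is said to have changed when limma's Benjamini-Hochberg adjusted p, over all 21875 genes, is under 0.05. The number of arrays limits the precision. Of all probes, 71.2% to 78.9% were well above background on an array. Markers of lung epithelium lay above background on all arrays for 5 of 5 genes, and 0 of the 5 passed in a genotype contrast. Their summed level ran from 9.03 to 9.18 in wild-type saline and from 9.33 to 9.57 in knockout saline, so all knockout saline arrays were higher. After OVA the summed level ran from 9.17 to 9.63 in wild type and from 9.08 to 9.41 in knockout, which overlap.

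Foxa3 itself was lower in knockout lung, as a check of the labels. Its probe was well above background on 3 of 3 wild-type arrays after each challenge and on 0 of 5 knockout arrays. A bound was taken against the lowest signal that counts as above background. With the processing used here, wild type was at least 1.58-fold higher than knockout after saline and at least 8.15-fold higher after OVA. The fitted differences passed after saline (limma adjusted p 0.0324) and after OVA (adjusted p 0.000353). The first of these calls was lost when any of 9 arrays was left out (adjusted p 0.0654 to 0.275). It was also lost with slide or replicate number as a block (adjusted p 0.0623 and 0.122) and with a trended robust prior (adjusted p 0.0569). The fitted Foxa3 difference after saline was -2.60, but -0.22 with normexp background correction (adjusted p 0.879) and -0.41 with the authors' deposited values (adjusted p 0.357), both smaller than the bound given above. After OVA it was -4.49, and -1.18 and -1.13 with these alternatives, and Foxa3 passed in each. Both are again smaller than the bound, so the bounds hold only for the processing used here. A probe outside the deleted part would check nothing, and the labels do not give that part.

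Over both challenges, 29 of the 496 neighbours of Foxa3 changed, 11 higher and 18 lower in knockout lung. That is 5.85% of them, against a background of 0.302% of all genes tested (66 of 21875, with 0.119% higher and 0.183% lower), 0.136% of genes on other chromosomes (27 of 19830) and 0.175% of genes elsewhere on chromosome 7 (2 of 1143). The 29 differences ran from 1.40-fold to 12.8-fold, with a median of 1.05 on the log2 scale. In each of the 5 differences that can be taken between arrays of 1 slide, 110 of the 496 genes (22.2%) had the sign of their fitted difference, against 1661 of all 21875 genes (7.59%). All 29 are among the 110, which is a description, since they were called on these same arrays.

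Counting without a model gave a like picture. The 5 knockout and 6 wild-type arrays did not overlap for 43 neighbours (12 higher and 31 lower in knockout), or 8.67%, against 0.727% of all genes tested and 0.499% of genes on other chromosomes. Of the 29 changed genes, 24 had no overlap. The exceptions were Qpctl, Nfkbid, Zfp94, Zfp14 and the predicted transcript ENSMUST00000094807. An absolute difference of at least 1 was seen for 22 neighbours (4.44%), against 0.832% of all genes.

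**Figure D1:**
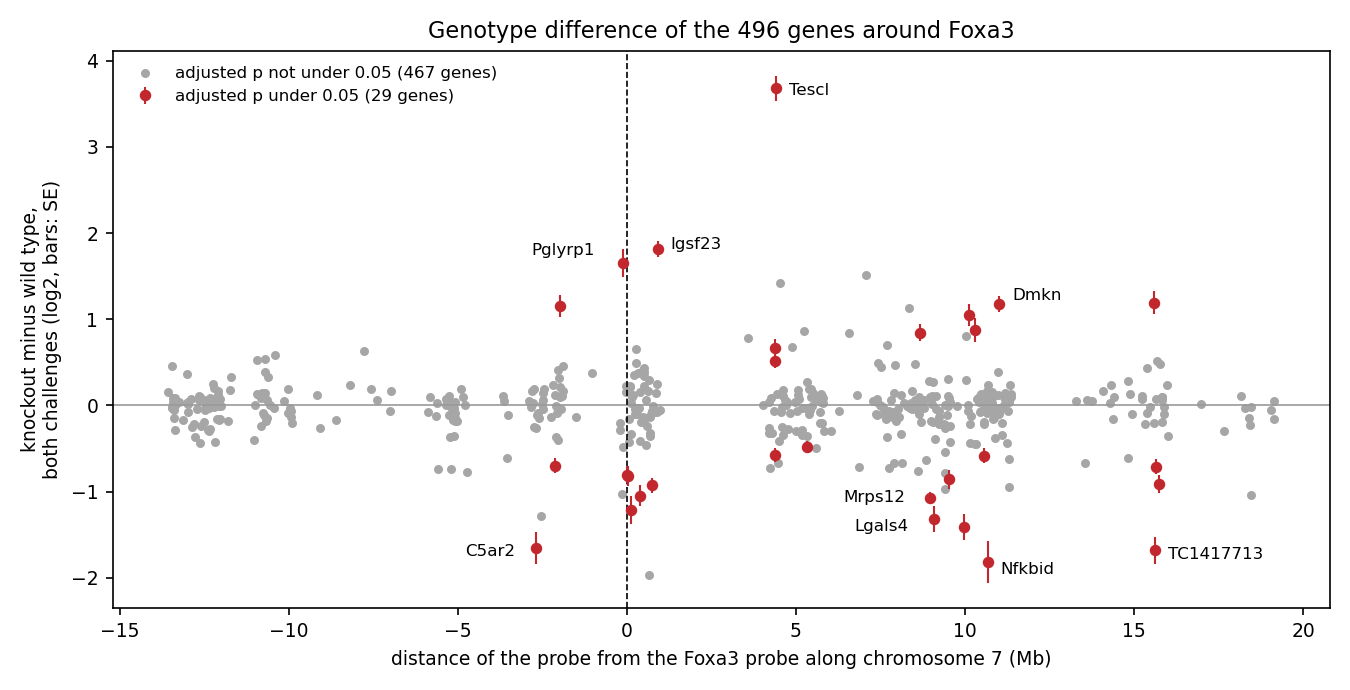
Difference between knockout and wild-type lung over both challenges (log2, vertical axis) against the distance of each gene's probe from the Foxa3 probe (Mb, horizontal axis) for the 496 genes. Red points with standard errors are the 29 genes with adjusted p under 0.05, which lie between -2.70 and 15.74 Mb, and grey points are the other 467.

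The 29 changed genes lay between C5ar2 at -2.70 Mb and Nudt19 at 15.74 Mb, a stretch of 18.4 Mb that holds 336 of the 496 genes. In this stretch, whose ends were set after the values were seen, 104 genes (31.0%) had an unadjusted p under 0.05, against 6.14% of all genes, and 42 had no overlap between genotypes. The ends are themselves changed genes, so that no gene outside them is called follows from how the stretch was drawn. Among the 140 genes before C5ar2, 8 (5.71%) had an unadjusted p under 0.05 and 1, the homeobox gene Meis3 just outside at -2.75 Mb, had no overlap. Among the 20 genes after Nudt19, 1 (5.0%) had an unadjusted p under 0.05 and 0 had no overlap. These shares lie near the 5.65% of genes on other chromosomes with an unadjusted p under 0.05.

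By distance, 7 of the 57 genes within 1 Mb changed (12.3%), as did 1 of 9 at 1 to 2 Mb, 6 of 67 at 2 to 5 Mb (8.96%), 6 of 166 at 5 to 10 Mb (3.61%) and 9 of 197 at 10 to 20 Mb (4.57%). From 20 to 40 Mb it was 1 of 215 (0.465%). The median absolute difference was 0.228 within 1 Mb, 0.169 at 2 to 5 Mb, 0.115 at 5 to 10 Mb and 0.107 at 10 to 20 Mb. Over all 496 genes it was 0.134, against 0.0993 on other chromosomes.

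The 2 sides of Foxa3 differed in these counts. At 5 to 20 Mb on the side of lower coordinates, 0 of 38 and 0 of 87 genes changed by limma, with 2 and 4 at an unadjusted p under 0.05. At the same distances on the other side, 6 of 128 and 9 of 110 changed, with 31 and 27 at an unadjusted p under 0.05. A difference between the sides was not tested.

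**Figure D2:**
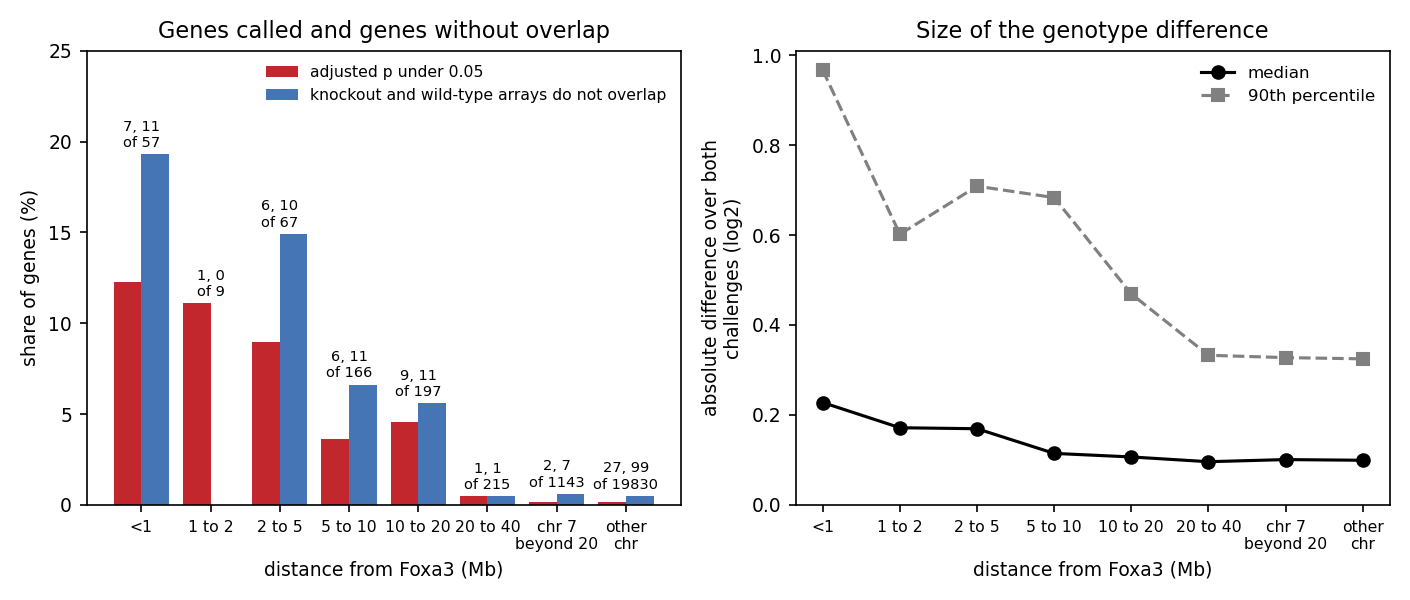
Left, the share of genes (%) with adjusted p under 0.05 (red) and with no overlap between the 5 knockout and 6 wild-type arrays (blue), by distance from Foxa3 in Mb, with both counts and the number of genes above each pair of bars. Right, the median (solid) and 90th percentile (dashed) of the absolute log2 difference for the same classes. The share called is 12.3% within 1 Mb and 0.136% on other chromosomes, and the column for chromosome 7 beyond 20 Mb includes the genes at 20 to 40 Mb.

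Among the 19 other chromosomes, the share of changed genes ran from 0% (on 7 chromosomes) to 1.18% on chromosome 14, where 9 of 763 genes changed, all lower in knockout. The next highest was 0.316%, on chromosome 1. The median absolute difference of a whole chromosome ran from 0.0932 to 0.108. Just inside the edge of the window, Zfp939, LOC215208 and AK086893 (19.05 to 19.15 Mb) had differences of -0.06, -0.16 and 0.05. Just outside it, Vstm2b, 4930433I11Rik and Vmn2r57 (20.51 to 20.98 Mb) had -0.17, 0.05 and -0.17.

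The largest difference was in Tescl, a gene named for its likeness to the calcium-binding protein tescalcin, 4.42 Mb from Foxa3. Its level was -4.90, -4.54 and -4.68 in wild-type saline, -1.07 and -0.97 in knockout saline, -4.18, -4.74 and -4.87 in wild-type OVA, and -1.17, -0.84 and -0.78 in knockout OVA. Every knockout array thus stood over every wild-type array, with little spread inside the groups. The difference was 3.68 ± 0.14 (adjusted p 5.92e-06), and it was 3.69 after saline and 3.67 after OVA (adjusted p 0.000199 and 7.93e-05).

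Igsf23, an immunoglobulin-superfamily membrane protein at 0.92 Mb, was next among the rises. Its level was -3.70, -3.90 and -3.93 in wild-type saline, -2.02 and -2.29 in knockout saline, -4.02, -4.25 and -4.04 in wild-type OVA, and -2.30, -1.99 and -2.20 in knockout OVA. The genotypes did not overlap, and the difference of 1.81 ± 0.10 (adjusted p 4.96e-05) also passed after each challenge alone. A second Igsf23 probe, above background on only 5 arrays, gave 2.09 ± 0.16. Its mean level of -6.82 lay among the lowest signals counted as above background (-7.19 to -6.42 by array). Such a probe can pass the filter through 1 genotype alone, so it adds no support here.

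Pglyrp1, a peptidoglycan recognition protein stored in neutrophil granules, lies closer to Foxa3 than any other gene that rose, at -0.12 Mb. Its level was -1.06, -0.64 and -0.21 in wild-type saline, 0.85 and 0.49 in knockout saline, 0.15, 0.31 and 0.27 in wild-type OVA, and 2.33, 1.97 and 2.45 in knockout OVA. Both OVA and the knockout genotype thus went with a higher level. The genotype difference was 1.66 ± 0.16 (adjusted p 0.00296), and the rise with OVA was 0.88 in wild type (adjusted p 0.0274) and 1.58 in knockout (adjusted p 0.008). Pglyrp1 passed after OVA (2.01, adjusted p 0.00868) but not after saline (1.31, adjusted p 0.207), and 0 of the 496 genes passed the test of a difference between the challenges. The call after OVA was lost without wild-type OVA 2 or knockout OVA 1 (adjusted p 0.0525 and 0.0683).

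Dmkn encodes dermokine, a secreted protein of epithelia, at 11.02 Mb. Its level was 0.08, 0.05 and -0.21 in wild-type saline, 1.19 and 1.1 in knockout saline, -0.12, -0.43 and -0.33 in wild-type OVA, and 0.81, 1.05 and 0.83 in knockout OVA. Again all knockout arrays were higher, and the difference was 1.18 ± 0.10 (adjusted p 0.00101).

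Mrps12, a protein of the small subunit of the mitochondrial ribosome at 8.98 Mb, had the smallest p among the genes that fell. Its level was 2.43, 2.49 and 2.35 in wild-type saline, 1.31 and 1.14 in knockout saline, 2.48, 2.62 and 2.47 in wild-type OVA, and 1.62, 1.58 and 1.52 in knockout OVA. No array of one genotype reached the range of the other. The difference was -1.08 ± 0.07 (adjusted p 0.000172), with -1.20 after saline and -0.95 after OVA, both past the threshold. Neither of these passed when only the groups compared were fitted (adjusted p 0.184 and 0.180).

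Bcam, the laminin receptor that carries the Lutheran blood group in humans, lies at 0.74 Mb. Its level was 3.04, 2.93 and 3.11 in wild-type saline, 1.97 and 1.84 in knockout saline, 2.72, 2.37 and 2.42 in wild-type OVA, and 1.70, 1.72 and 1.88 in knockout OVA. All 5 knockout arrays were lower, by -0.93 ± 0.09 on average (adjusted p 0.00290). OVA lowered Bcam in wild type (-0.52, adjusted p 0.0212), and the value in knockout was -0.14 (adjusted p 0.518).

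C5ar2, a second receptor for the complement fragment C5a, was lower in knockout and marks the lower end of the changed stretch. Its level was -0.40, -0.37 and -0.20 in wild-type saline, -1.28 and -1.96 in knockout saline, -0.11, 0.42 and -0.37 in wild-type OVA, and -1.70, -2.05 and -2.35 in knockout OVA. The difference was -1.66 ± 0.19 (adjusted p 0.00828). C5ar1, the signalling C5a receptor beside it at -2.69 Mb, had a difference of -0.26 ± 0.20 and did not pass (adjusted p 0.954).

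Nfkbid, a nuclear inhibitor protein of the NF-kappaB pathway at 10.67 Mb, had the largest fall among the changed genes. Its level was -2.39, -1.57 and -1.16 in wild-type saline, -3.15 and -3.71 in knockout saline, -0.69, -0.52 and -0.46 in wild-type OVA, and -2.15, -2.91 and -2.34 in knockout OVA. Saline wild-type arrays overlapped knockout OVA arrays, but within each challenge the genotypes were apart. The difference of Nfkbid over both challenges was -1.82 ± 0.24 (adjusted p 0.0173), and OVA raised the gene by 1.15 in wild type (adjusted p 0.0386). The genotype call was lost without any 1 of 6 arrays (adjusted p 0.0539 to 0.0979) and with slide or replicate number as a block. The relatives Relb and Nfkbib in the window had differences of -0.24 and -0.18 and did not pass.

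**Figure D3:**
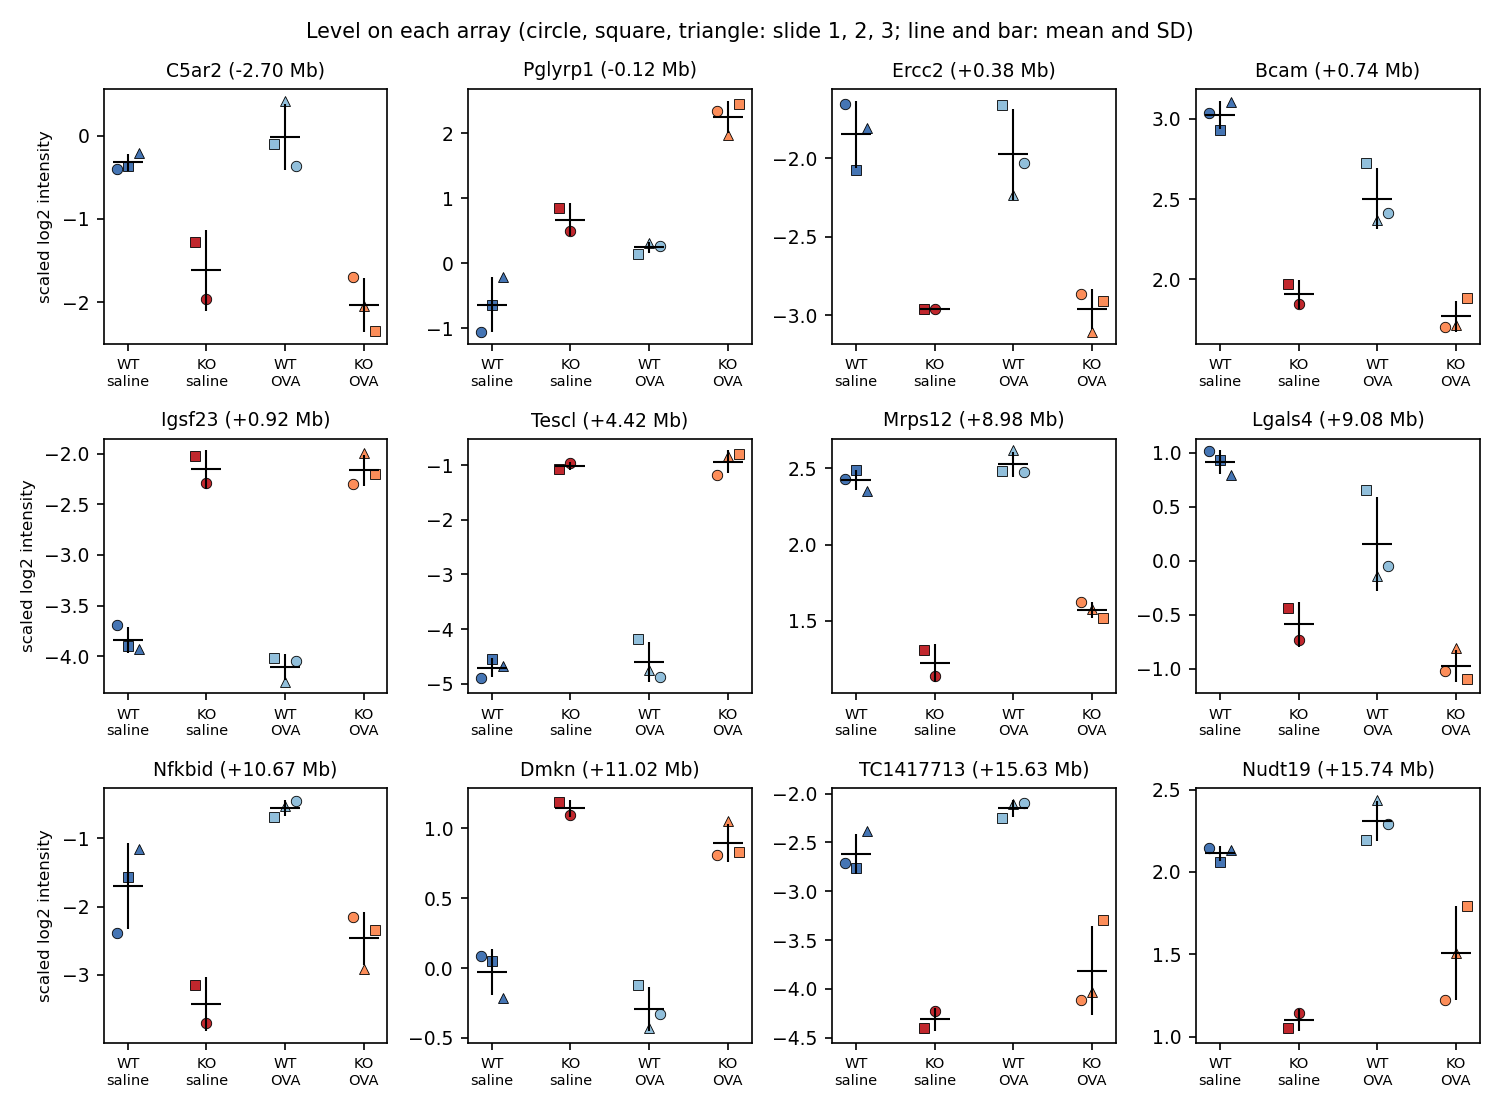
Scaled log2 intensity (vertical axis) of 12 changed genes on each of the 11 arrays, by group (WT wild type, KO knockout), with the distance from Foxa3 in the panel titles. Points are arrays, with the shape giving the slide, and lines with bars are the mean and SD of a group (n = 3, or 2 for knockout saline). In Tescl and Igsf23 the knockout arrays stand over all wild-type arrays after either challenge.

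Of the 33 genes within 0.5 Mb of Foxa3, 5 changed, and the nearest were not the most different. Irf2bp1, a corepressor partner of interferon regulatory factor 2 only -0.01 Mb away, fell by 0.81 on the log2 scale (adjusted p 0.00835), while Mypop at the same rounded distance had 0.15 and did not pass. Sympk, a scaffold of messenger RNA 3' end processing at 0.04 Mb, fell by 0.82 (adjusted p 0.0282). Qpctl, a Golgi glutaminyl cyclase at 0.13 Mb, fell by 1.21 (adjusted p 0.0199). The calls of Sympk and Qpctl were lost under 11 and 9 of the 21 alternatives, both with slide as a block. Its neighbour Snrpd2, a spliceosome core protein at 0.14 Mb, had 0.03. Ercc2, the XPD helicase of transcription factor IIH and of excision repair, fell by 1.05 (adjusted p 0.00839), while the repair nuclease subunit Ercc1 had -0.03. Members of the block from Rsph6a to Six5, which holds the myotonic dystrophy kinase Dmpk, ran from -0.42 (Dmwd) to 0.23 (Six5), and none passed. Mill2, an MHC class I-like gene at -0.16 Mb, had -1.02 with adjusted p 0.0551, and 0.0201 with normexp background correction. The remaining genes there, among them Psg17, Ccdc61, Fbxo46, Gipr, Gpr4, Opa3, Vasp, Rtn2, Fosb, Klc3, Ckm and Mark4, did not pass, with Ppm1n the highest at 0.66 and Ccdc61 the lowest at -0.48.

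Most changed genes lay singly among genes that did not pass. The exceptions were the pairs Irf2bp1 with Sympk and TC1417713 with Cep89, and 1 run of 4 adjacent genes over 56.6 kb at 4.37 to 4.42 Mb. In that run the zinc-finger gene Zfp93 fell by 0.58 (adjusted p 0.0202), Zfp61 and Zfp94 rose by 0.52 and 0.66 (adjusted p 0.0479 and 0.0470), and Tescl rose as above. The calls of Zfp93, Zfp61 and Zfp94 were lost under 10, 15 and 16 of the 21 alternatives, each of them with slide and with replicate number as a block. Between 15.63 and 15.74 Mb, the expressed sequence TC1417713 fell by 1.68 (adjusted p 0.00275), the centrosomal gene Cep89 by 0.71 (adjusted p 0.0103) and the Nudix hydrolase Nudt19 by 0.91 (adjusted p 0.00839). Nudt19 did not pass with slide as a block.

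Between these, at 8.68 to 11.02 Mb, lay a further group of changed genes. Gmfg, an actin regulator of leukocytes, rose by 0.85 (adjusted p 0.00835), and its second probe gave 0.88. Lgals4, a galectin of gut epithelium, fell by 1.31 (adjusted p 0.00835), and its second probe gave -0.96. Ppp1r14a, an inhibitor of smooth-muscle myosin phosphatase, fell by 0.86 (adjusted p 0.0136), and Alkbh6, an AlkB-family dioxygenase, by 0.58 (adjusted p 0.0345). Nearer to Foxa3, the kinase gene Gsk3a fell by 0.49 (adjusted p 0.0336) and the glutamine transporter gene Slc1a5 by 0.70 (adjusted p 0.0128). Of the 21 alternatives, 19 ended the call of Gsk3a, among them each of the 11 arrays left out, both blocks, normexp and both other scalings. The calls of Alkbh6, Slc1a5 and Ppp1r14a were lost under 13, 6 and 4, both blocks among them. The predicted transcript ENSMUST00000094807 rose by 1.15 (adjusted p 0.00589), but by 0.44 with normexp background correction (adjusted p 0.154). Among the changed genes, it alone was not above background on all 11 arrays. Its call was also lost without knockout saline 1 (adjusted p 0.0515). After OVA alone it had 0.15 with normexp (adjusted p 0.773) and 0.30 with the authors' deposited values (adjusted p 0.381).

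A second probe was available for 6 of the 29 genes, 7 probes in all. Of these, 5 had the direction of the brightest probe and 3 passed in a fit of 32946 probes (those of Igsf23, Gmfg and Lgals4). The Igsf23 probe among them lay near the floor, as given above, and is not taken as support. Zfp61 gave 0.31 with its other probe. Catsperg2, an accessory subunit of the sperm calcium channel, fell by 1.41 with the brightest probe (adjusted p 0.00516), but its 2 other probes gave 0.29 and 0.08 (adjusted p 0.842 and 0.958). Zfp420 rose by 1.05 with the brightest probe (adjusted p 0.00839) and gave 0.05 with the other. The remaining 23 genes rest on a single probe, and whether a probe follows the level of its RNA or the sequence under it was not tested for them.

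By kind of gene, the 60 zinc-finger proteins of the window are mostly KRAB-type repressors of transcription. They held 5 of the 29 changed genes: 4 rose (Zfp420, Zfp14, Zfp94, Zfp61) and 1 fell (Zfp93). In this order, their calls were lost under 3, 11, 16, 15 and 10 of the 21 alternatives. The median of the 60 was -0.02, against -0.01 for all 496 genes. Over the whole window 5.85% of genes changed, and 0.302% of all genes tested. No list was tested against these shares. The 4 genes of NF-kappaB and its inhibitors, the 5 DNA repair genes, the 10 genes of the Ceacam, Psg and nectin families, the 10 leukocyte receptors and adaptors, the 14 genes of growth factor and kinase signalling, the 14 of ion transport, the 12 other transcription factors and the 9 mitochondrial proteins each held 1 gene that fell and 0 that rose in limma's test. These were Nfkbid, Ercc2, Bcam, C5ar2, Gsk3a, Slc1a5, Irf2bp1 and Mrps12.

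None of the 7 genes of lipid handling passed. Apoc2, the cofactor of lipoprotein lipase, had the lowest value at -1.97 ± 0.34 with no overlap between genotypes (adjusted p 0.0700, and 0.0313 with normexp background correction). The neighbouring Apoc1 had -0.32 and Clptm1 0.17. The 5 ribosomal protein genes had differences of 0.00 to 0.04, and none of the 6 muscle genes passed (-0.43 to 0.11). Fxyd3, a regulator of the sodium pump at 11.31 Mb, had -0.94 with adjusted p 0.0639, and 0.0453 with normexp.

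Markers of other tissues were set beside these values. In the lists for B cells, cardiac muscle, skeletal muscle, adipocytes, hepatocytes and macrophages, 0 genes passed in any genotype contrast. Their median differences over both challenges were -0.26, -0.44, -0.45, -0.52, -0.93 and -0.09, with 5, 5, 4, 4, 2 and 5 genes measured. The hepatocyte value rests on Alb (-1.37 ± 0.76) and Apoa1 (-0.49 ± 0.65). Apoa1 was above background on only 3 arrays. The summed cardiac level ran from 5.84 to 6.26 in wild-type saline and from 5.21 to 5.49 in knockout saline, and from 4.99 to 5.74 and 4.90 to 5.59 after OVA. The skeletal level ran from 2.07 to 2.77 and 1.62 to 1.74 after saline, and from 1.38 to 2.21 and 1.24 to 1.82 after OVA. The adipocyte level ran from 2.59 to 2.77 and 1.98 to 2.44 after saline, and from 0.24 to 1.88 and 1.21 to 1.89 after OVA. So knockout saline arrays were below wild-type saline arrays in all 3, while the OVA groups overlapped. The hepatocyte level ran from -3.83 to 0.43 and -3.98 to -3.21 after saline, and from -4.73 to -3.76 and -5.60 to -4.99 after OVA. The B cell level ran from 2.60 to 4.18 and 3.32 to 4.12 after saline, and from 4.17 to 4.49 and 3.60 to 3.71 after OVA. The macrophage level ran from 3.59 to 4.04 and 4.10 to 4.11 after saline, and from 5.17 to 5.84 and 5.06 to 5.75 after OVA. Hepatocyte and B cell levels were thus lower on all knockout arrays after OVA and overlapped after saline. Macrophage levels were higher on both knockout arrays after saline and overlapped after OVA. The part of such cells in the differences above was not tested. In bulk tissue, fewer cells of a type and less RNA per cell cannot be told apart.

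The genotype difference was also taken after each challenge alone. The group means then come from different arrays, but the spread was estimated from all 11 arrays. Calls after saline and after OVA are therefore not independent repeats. After saline, 5 neighbours changed (1.01%), against 0.096% of all genes: Tescl, Igsf23 and Dmkn were higher, and Mrps12 and Bcam lower. The calls of Dmkn and Bcam after saline were each lost under 10 of 22 alternatives. After OVA, 11 changed (2.22%), against 0.21% of all genes. Tescl, Igsf23, Pglyrp1, Dmkn, ENSMUST00000094807 and Zfp420 were higher, and C5ar2, TC1417713, Catsperg2, Mrps12 and Irf2bp1 lower. The count after OVA fell to 5 with slide as a block, to 4 when only the OVA groups were fitted, and to between 3 (without wild-type OVA 2) and 10 with 1 array left out. The calls after OVA of Zfp420 and Irf2bp1 were lost under 17 and 16 of 22 alternatives, and that of ENSMUST00000094807 under 17 of 21. Those of TC1417713, Catsperg2 and C5ar2 after OVA were lost under 9, 8 and 7 of 22, each with slide as a block. With normexp background correction the split after OVA was 6 higher and 14 lower. With the authors' deposited values it was 10 higher and 16 lower. Of the 12 genes called after either challenge, 4 were called after both (Tescl, Igsf23, Mrps12 and Dmkn). Among these, only Tescl kept both calls when just the groups compared were fitted. In those fits Dmkn had limma adjusted p 0.262 after saline and 0.185 after OVA.

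The 2 differences were then compared gene by gene. Over all 496 genes, 315 (63.5%) had the same sign after saline and after OVA, against 59.7% on other chromosomes. Of the 91 genes with an unadjusted p under 0.05 after OVA, 82 (90.1%) had the same sign after saline, against 604 of 898 such genes (67.3%) on other chromosomes. Over all 496 genes Pearson's r between the differences was 0.703 and Spearman's rho 0.491, against 0.163 and 0.196 on other chromosomes. Without the 29 changed genes Pearson's r was 0.479. This is a description across genes, which are not independent, and the arrays compared share slides. For the difference between the challenges, 0 of the 496 genes passed in limma and 8 had an unadjusted p under 0.05, against 1 and 566 of all 21875 (0.00457% and 2.59%).

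**Figure D4:**
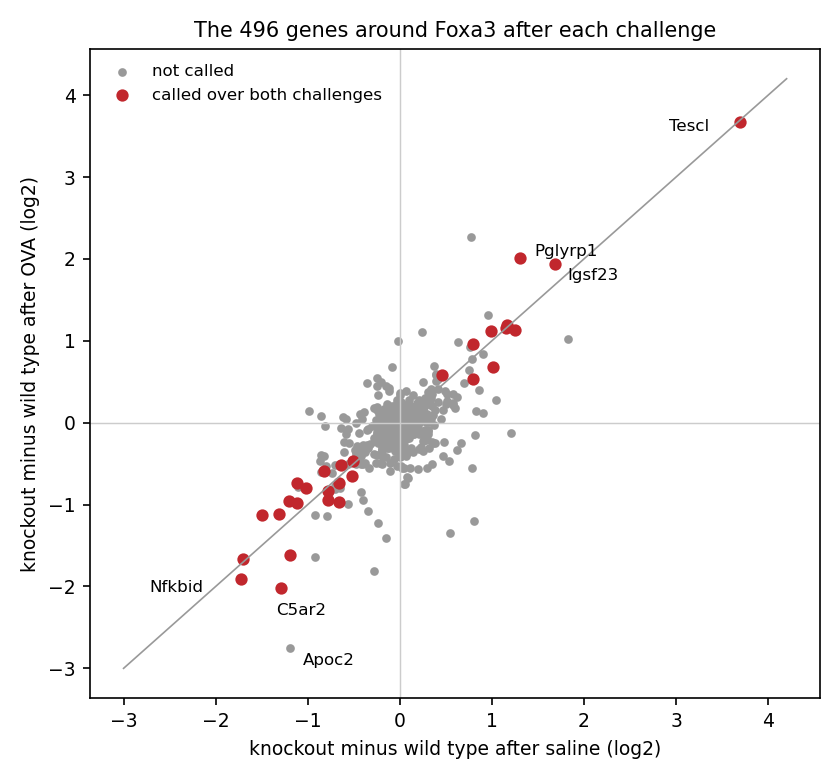
Difference between knockout and wild type after OVA (log2, vertical axis) against that after saline (log2, horizontal axis) for the 496 genes, with the line of equal differences. Red points are the 29 genes called over both challenges (Tescl at 3.69 and 3.67), and grey points are the other 467 genes. The red genes were called on the mean of these same differences, so their place near the line is a description. Their difference after OVA minus that after saline ran from -0.72 to 0.70.

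OVA itself changed 83 of the 496 genes in wild-type lung (48 rose and 35 fell), which is 16.7%, against 18.8% of all genes tested. In knockout lung it changed 28 (19 rose and 9 fell), or 5.65% against 8.23%. Both counts hung on single arrays. In wild type the count ran from 20 (without wild-type OVA 2) to 139 (without wild-type OVA 1). It was 23 when wild-type OVA 3 was left out, 30, 21 and 45 when wild-type saline 1, 2 or 3 was, and 55 when either knockout saline array was. In knockout it ran from 4 (without knockout saline 1) to 57 (without wild-type OVA 1). It was 8 when knockout saline 2 was left out, 15, 53 and 11 when knockout OVA 1, 2 or 3 was, 18 when wild-type saline 2 or 3 was, and 17 when wild-type OVA 3 was. The largest rises in wild type were in Ceacam19 (4.46 ± 0.82), an adhesion molecule at 0.86 Mb, ENSMUST00000076648 (3.27 ± 0.36) and the phospholipase Pla2g4c (3.05 ± 0.31). The largest falls were in LOC233005 (-3.05 ± 0.67), the unnamed probe A_52_P700200 (-1.29 ± 0.31) and Ltbp4 (-1.28 ± 0.33), a binding protein of latent TGF-beta. None of these 6 passed between genotypes. Ceacam19 had 0.15 there with adjusted p 0.997. Of the 29 genes that differed between genotypes, 8 also changed with OVA in wild type and 3 in knockout. The shares of all genes tested were 18.8% and 8.23%, and the counts were not tested against them.

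Forkhead proteins bind sequences close to TGTTTAC. These letters or their reverse complement, GTAAACA, were searched in RefSeq promoters of GRCm38.p6, from 250 bases before to 50 bases after each start, on both strands. They occur in 1199 of 32851 promoters (3.65%), in those of 12 of the 364 window genes with a promoter in the table (3.30%) and of 0 of the 23 changed genes with one. A match is a description, and its absence says only that these letters are not in that window.

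Firmness varied among the 29 genes. Tescl, Igsf23, Mrps12, Dmkn, TC1417713, Bcam, Pglyrp1 and C5ar2 passed over both challenges under each of 21 other ways of processing or fitting the data, among them each array left out in turn. Fits without a whole slide, given below, are not among the 21, and only Tescl kept its call in each of those. The other changed genes lost the call under 1 to 19 of the 21, with Gsk3a, Zfp94, Zfp61, Alkbh6, Sympk and Zfp14 losing it under 11 or more, and 0 of the named genes reversed as a called result. The count of 29 fell to 11 without knockout saline 1, to 11 without knockout saline 2 and to 19 without wild-type OVA 3, and to 17 with slide as a block. The 12 genes that did not pass with that block were Alkbh6, Gsk3a, Nfkbid, Nudt19, Ppp1r14a, Qpctl, Slc1a5, Sympk, Zfp14, Zfp61, Zfp93 and Zfp94. Without the whole of slide 1, 2 or 3 it was 1, 1 and 5, in fits of 7, 7 and 8 arrays.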

How the data were processed

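Total RNA of mouse lung was hybridised to 11 one-colour (Cy3) arrays. Per the file headers, each deposited scanner file gives background-subtracted, detrended intensity per spot from Feature Extraction 9.5.1.1, while the submitters' processing notes name 9.1. The deposited table of log2 values by the authors, whose normalization is not stated in the labels, served as an alternative only.

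Intensities were taken as log2 minus each array's 75th percentile. Control spots and flagged outliers were left out, and probes well above background on at least 2 arrays were kept (32946 probes, 21875 genes, brightest probe per gene). Names came from a RefSeq table of GRCm38.p6, by accession for 22951 probes, symbol for 6659 and synonym for 3109, and 8455 kept the file's name. Positions follow the scanner files (mm7).

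Group means were estimated over all 11 arrays together in limma (3.58.1, R 4.3.3), with prior degrees of freedom 1.95 and residual 7. Tests were two-sided, and a gene passed at 0.05 after Benjamini-Hochberg adjustment over all genes. Genes named are Foxa3, all changed neighbours but 1 that is not reported here, those within 0.5 Mb (in part as a range), up to 3 per list of smallest p, and the extremes of the OVA response. The members, lists and rule were chosen with earlier results of these data known. Alternatives covered background correction (normexp, offset 50, without spots of local background over 3 times the array's median), scaling, filters, probe summary, slide and replicate blocks, window size, the groups fitted, the prior and each array left out.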

Additional observations from a re-analysis of the deposited data

How the results depend on the processing

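Depth enters here as signal over background: 426 of the 496 genes were above background on all 11 arrays, as were 28 of the 29 changed genes. Quantile and median scaling moved the median of all genes by at most 0.0282, and normexp or the authors' values by at most 0.0641. The count over both challenges (29) was 24 to 36 under other background correction, scaling, filter, probe summary, prior and the authors' value table, and 20 within 10 Mb. With slide as a block, counts were 17 over both, 3 after saline, 5 after OVA, and 53 and 17 for OVA in wild type and knockout. Same-numbered samples of different groups deviated together (correlation over 0.1) in 4 of 15 pairs (-0.41 to 0.34), against 5 of 18 pairs that shared neither number nor slide. No pairing by number was seen in these counts. They cannot exclude one, since deviations were taken from group means and the pairs are not independent. Samples of 1 slide deviated together more often (over 0.1 in 12 of 15 pairs, -0.16 to 0.48). With slide as a block 12 of the 29 calls were lost, and with the replicate number as a block the counts were 17 over both and 15 for OVA in knockout. Normexp gave 9 after saline, 20 after OVA and 44 for OVA in knockout, the authors' deposited values gave 10, 26 and 63, and a trended robust prior gave 11, 24 and 51. Probes above background on all arrays gave 8 and 18 after saline and OVA. Fitting only the groups compared gave 1 and 4, and 37 and 10 for OVA in wild type and knockout. Within 10 Mb OVA called 48 and 17. Leaving out 1 array gave 11 to 27 over both, 3 to 7 after saline and 3 to 10 after OVA. It gave 0 in each case for the difference of the challenges, and 20 to 139 and 4 to 57 for OVA in wild type and knockout. Genes without overlap then numbered 44 to 52 in the window and 175 to 316 over all genes tested (159 with all arrays). The median absolute difference was 0.128 to 0.159. Leaving out whole slides was added after seeing the data. Without slide 1 counts were 1, 0, 0, 1 and 0 in the order of the slide block, without slide 2 they were 1, 0, 1, 32 and 0, and without slide 3 they were 5, 1, 1 and 8 for the first 4. Genes without overlap numbered 71 and 69 without slides 1 and 2. Over all genes tested the count rose as well, from 159 to 803 and 974. Fewer arrays enter these fits, and the cause of the other shifts was not tested.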

Other observations

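Chromosome 14 had the highest share of changed genes after chromosome 7, with 9 of 763 lower in knockout and 0 higher. These genes were chosen after their values were seen and lie in a pair of stretches of mm7, 20.35 to 23.66 Mb and 64.23 to 64.27 Mb. In the first, Lrmda had -2.33 ± 0.09, Plac9a -1.92 ± 0.08 and Tmem254a -1.91 ± 0.09, each with no overlap between the 5 knockout and 6 wild-type arrays. In the second, the clone AK038254 had -4.71 ± 0.12 and Entpd4 -1.04 ± 0.10. The differences of Lrmda were -2.22 after saline and -2.44 after OVA, and those of Plac9a -2.01 and -1.82. The cause was not tested.

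Of the 9 genes left out of the window because their names start with Cyp2 or Sult, 0 passed between genotypes in limma, and 4 had an unadjusted p under 0.05.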
